A study of Mus musculus with 6 samples.

Results

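The aquaporins, the water channels of the nephron, and Avpr2, the vasopressin V2 receptor, were examined in kidneys of iron-deficient and control mouse pups. The 10 genes, Aqp1 to Aqp8, Aqp11 and Avpr2, were taken by gene symbol from the 24422 genes counted in the series. The counts came from RNA sequencing of 6 whole kidneys, each a separate library. Both groups were wild type C57BL/6 pups whose samples are labelled as postnatal day 15. FeD pups (n = 3) were born to dams kept on an iron-deficient diet with 2 to 6 ppm iron before mating, through pregnancy and after birth, and control pups (n = 3) to dams kept on a diet with 220 ppm iron. Neither the sex of each pup nor the number of litters is given, so the diet and differences between litters cannot be told apart. Whole kidneys hold every nephron segment, and in such samples fewer cells of a type and less RNA per cell cannot be told apart.

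Total counts were 18312543, 16189041 and 20374327 in control kidneys 1, 2 and 3 and 17833878, 13732173 and 20853293 in FeD kidneys 1, 2 and 3. Values are given as normalized counts, which are raw counts scaled to a common library size by the TMM method. At these depths 3 counts, taken as the smallest signal, correspond to 2.59 to 3.90 normalized counts. This floor covers counting error only. Among 5 markers of the adrenal cortex, whose most abundant gene was Star, the summed level was 1283, 192 and 139.7 normalized counts in control kidneys 1, 2 and 3 and 209.96, 13859 and 224 in FeD kidneys 1, 2 and 3. FeD kidney 2 thus held adrenal transcripts far above the others. Control kidney 1 had 989 normalized counts of Hsd3b1 and 123 of Cyp11a1, but its Cyp21a1 (4.79), Cyp11b1 (0) and Star (166) were like those of the kidneys other than FeD kidney 2. The source of its Hsd3b1 and Cyp11a1 was not determined. Of the 3 adrenal markers tested, Cyp21a1 and Star passed as higher in FeD kidneys by edgeR and 0 as lower. Both rested on FeD kidney 2, and the calls of Cyp21a1 and Star held in only 7 and 5 of 14 alternatives. Xist, transcribed from the inactive X chromosome, had 15410.4 and 14238 normalized counts in control kidneys 1 and 2 and 16079 in FeD kidney 3, against 28.0 to 48.0 in the other kidneys. Ddx3y, a gene of the Y chromosome, had 1367 normalized counts in control kidney 3, 1864 in FeD kidney 1 and 2309 in FeD kidney 2, and at most 12.2 in the others. Both groups therefore held Xist-high and Ddx3y-high kidneys, in unequal numbers. For each tested gene of the 10, the fold change without control kidney 1 and FeD kidney 2 is given beside that of all 6 kidneys.

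Aquaporins are membrane channels that let water follow osmotic gradients, and some of them also pass glycerol. Water is reabsorbed in the proximal tubule and thin descending limb largely through Aqp1. In the collecting duct, vasopressin binds its V2 receptor on principal cells, raises cyclic AMP and brings Aqp2 to the apical membrane, while Aqp3 and Aqp4 let water leave across the basolateral membrane.

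FeD kidneys had more Aqp2 and Aqp3 RNA than control kidneys and less Aqp1 and Aqp6 RNA. Counts of Avpr2 were also lower, but 81.3% of its exon bases are shared with Arhgap4. How reads of these shared bases were counted is not known. The call of Avpr2 was lost without control kidney 2 or 3 or FeD kidney 1. Of the 10 genes, 9 had enough counts to be tested, and Aqp8 did not. Genes were tested with the quasi-likelihood method of edgeR, and P values were adjusted over 15145 genes by the Benjamini-Hochberg procedure. By this test, 2 of the 9 were higher in FeD kidneys at an adjusted P under 0.05, where 22.4% of all tested genes were. Both of them also changed at least 2-fold, where 4.34% of all tested genes did so in this direction. Lower in FeD kidneys were 3 of the 9, where 23.3% of all tested genes were. None of these 3 fell 2-fold: the count was 0 by edgeR with adjustment, 0 at an unadjusted P under 0.05 and 0 by DESeq2, against 5.69% of all tested genes by edgeR. The other 4 genes, Aqp4, Aqp5, Aqp7 and Aqp11, passed in neither direction. The groups were apart, without overlap between kidneys, in 5 of the 9 genes and in 58.1% of all tested genes. The median log2 fold change was 0.09 over the 9 genes and -0.00 over all tested genes. These shares are close to those of all genes apart from the 2-fold rises, which concern only 2 genes. The plot of the genes by kidney shows each value.

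**Figure D1:**
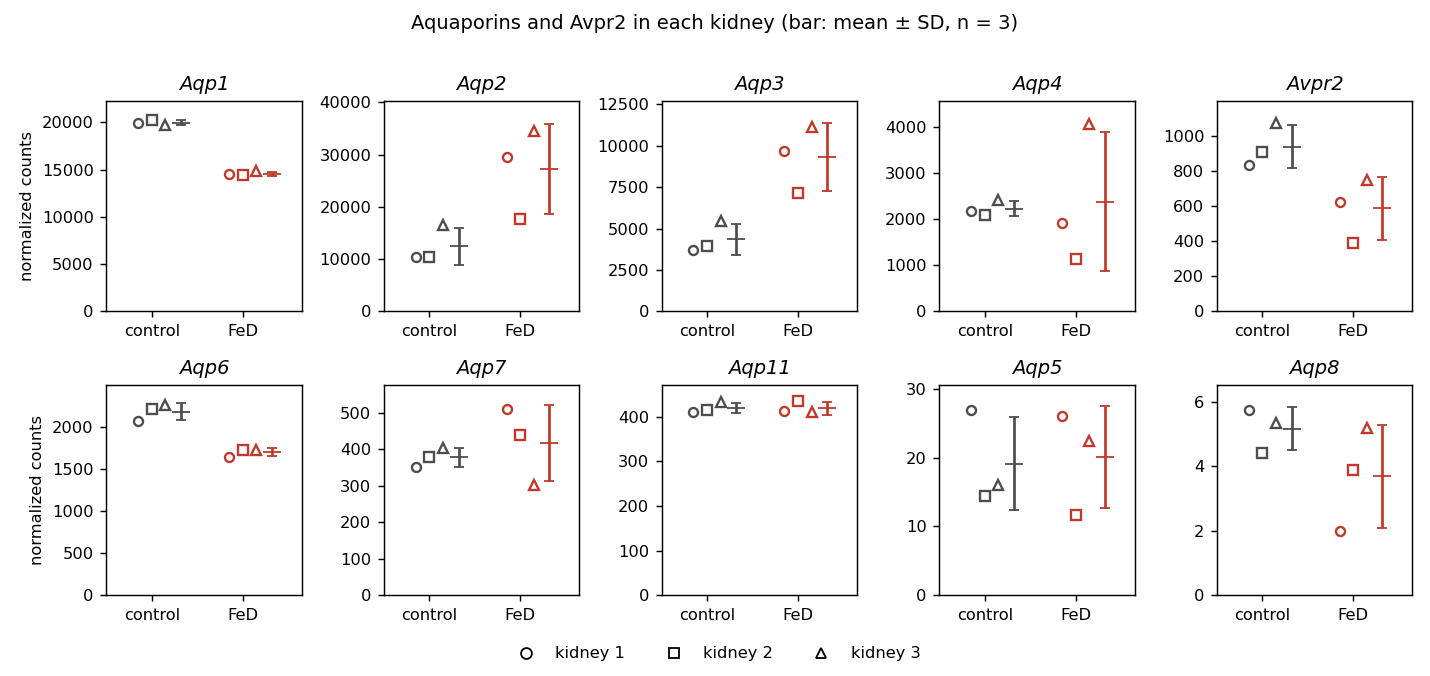
Normalized counts (vertical axis, from 0) of the 10 genes in each control and FeD kidney, with 1 symbol per kidney and the mean ± SD (n = 3) as a bar; each panel has its own scale. Groups are apart for Aqp2 and Aqp3 (higher in FeD) and for Aqp1, Aqp6 and Avpr2 (lower in FeD), and they overlap for Aqp4, Aqp5, Aqp7, Aqp8 and Aqp11.

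Aqp2, the vasopressin-regulated channel of the apical membrane of principal cells, lies on chromosome 15 from 99409487 to 99414976 on the plus strand (NCBIM37, mm9). It had 10423, 10362 and 16567 normalized counts in control kidneys 1, 2 and 3 and 29562, 17688 and 34483 in FeD kidneys 1, 2 and 3. The lowest FeD kidney, FeD kidney 2, was only just above the highest control kidney, control kidney 3, so the groups were apart by a narrow margin. The mean rose from 12451 ± 3565 to 27244 ± 8634 (SD, n = 3), a ratio of 2.19. The log2 fold change was 1.13 (standard error, SE 0.27; edgeR, Benjamini-Hochberg adjusted P = 0.0093). Without control kidney 1 and FeD kidney 2 it was 1.26 (edgeR adjusted P = 0.0088, within a range of 0.0014 to 0.045 over 14 alternatives). Without FeD kidney 3 it was 0.94, below 2-fold, and still passed (edgeR adjusted P = 0.016).

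Aqp3, the basolateral water and glycerol channel of the same cells, lies on chromosome 4 from 41039755 to 41045216 on the minus strand. It had 3711, 3937 and 5431 normalized counts in control kidneys 1, 2 and 3 and 9673, 7136 and 11146 in FeD kidneys 1, 2 and 3. Every FeD kidney was above every control kidney, with FeD kidney 2 again the lowest of its group and control kidney 3 the highest of its own. The mean rose from 4360 ± 935 to 9319 ± 2029 (SD, n = 3), a ratio of 2.14. The log2 fold change was 1.10 (SE 0.19; edgeR, Benjamini-Hochberg adjusted P = 0.0023). It was 1.16 without control kidney 1 and FeD kidney 2 (edgeR adjusted P = 0.0048, within a range of 1.6e-09 to 0.016 over 14 alternatives). It fell short of 2-fold without control kidney 1, at 0.99, and without FeD kidney 3, at 0.96, and passed the adjusted P of edgeR in both cases. The count of genes raised 2-fold was therefore 1 without control kidney 1 and 0 without FeD kidney 3.

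Sequence before the start of transcription is shown for Aqp2 and Aqp3, which rose together, and for Aqp6, which is close to Aqp2 and fell. The 250 bases before each start come from RefSeq in build GRCm38.p6, were read for 9 of the 10 genes and run 5′ to 3′ on the strand of the gene. They lie at chr15:99578806-99579055 (+) for Aqp2, chr4:41098184-41098433 (−) for Aqp3 and chr15:99600950-99601199 (+) for Aqp6. Capitals mark matches on either strand to CACGTG, to TGACGTCA, to TGACG, to AGATAA, to ACGTG or to TGANTCA. The letters ACGTG lie within CACGTG and TGACG within TGACGTCA.
Aqp2: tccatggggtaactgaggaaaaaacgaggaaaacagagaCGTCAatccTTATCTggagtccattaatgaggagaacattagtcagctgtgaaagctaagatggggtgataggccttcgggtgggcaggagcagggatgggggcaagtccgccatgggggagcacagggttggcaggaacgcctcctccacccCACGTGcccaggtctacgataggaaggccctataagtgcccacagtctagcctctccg
Aqp3: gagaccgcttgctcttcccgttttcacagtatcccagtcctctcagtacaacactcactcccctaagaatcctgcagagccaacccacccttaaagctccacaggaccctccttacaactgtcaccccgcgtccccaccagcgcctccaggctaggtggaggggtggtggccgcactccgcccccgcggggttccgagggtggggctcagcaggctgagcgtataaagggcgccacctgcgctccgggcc
Aqp6: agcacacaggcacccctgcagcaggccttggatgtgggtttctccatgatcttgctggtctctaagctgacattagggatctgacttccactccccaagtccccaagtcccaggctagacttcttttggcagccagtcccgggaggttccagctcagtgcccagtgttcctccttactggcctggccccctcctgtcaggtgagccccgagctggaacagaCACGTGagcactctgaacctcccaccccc
The Aqp2 window held CACGTG from 58 to 53 bases before the start, and TGACG and AGATAA on the opposite strand at 211 to 207 and 202 to 197 bases before it. No searched letters were in the Aqp3 window. The Aqp6 window held CACGTG from 29 to 24 bases before the start. Of 32851 promoter windows of the same length, 6.02% held CACGTG, 17.8% TGACG, 9.99% AGATAA, 16.6% ACGTG, 1.55% TGACGTCA and 6.75% TGANTCA. The letters CACGTG were also in the windows of Aqp5 and Aqp8, and ACGTG occurred outside CACGTG in that of Aqp5. AGATAA was in 1 of the 2 windows of Aqp7, and the windows of Aqp1, Aqp11 and Avpr2 held no match. A match gives the letters only, and binding was not measured.

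Levels of Aqp2 and Aqp3 kept a near constant ratio, whereas the ratio of Aqp2 to Avpr2 differed between the groups. These ratios and the deviations of single kidneys were chosen after the values were seen. Aqp2 over Aqp3, in normalized counts, was 2.81, 2.63 and 3.05 in control kidneys 1, 2 and 3 and 3.06, 2.48 and 3.09 in FeD kidneys 1, 2 and 3. The groups overlapped, at 2.83 ± 0.210 and 2.88 ± 0.345 (SD, n = 3). Aqp2 over Avpr2 was 12.5, 11.4 and 15.4 in control kidneys 1, 2 and 3 and 47.4, 45.3 and 46.2 in FeD kidneys 1, 2 and 3. The groups were far apart and the FeD kidneys close to each other, with means of 13.1 ± 2.08 and 46.3 ± 1.06 (SD, n = 3), a ratio of 3.53. Aqp3 over Avpr2 was 4.44, 4.33 and 5.06 in control kidneys and 15.5, 18.3 and 14.9 in FeD kidneys 1, 2 and 3, again without overlap. Arhgap4, which fell by 1.60 on the log2 scale, shares 81.3% of the exon bases of Avpr2. How reads of the bases shared by both genes were counted is not known. The part of Arhgap4 in the ratios over Avpr2 was not tested.

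Among FeD kidneys, Aqp2, Aqp3 and Avpr2 had their lowest and highest values in the same kidneys. The log2 deviation of Aqp2 from its group mean was -0.57 in FeD kidney 2 and 0.40 in FeD kidney 3. For Aqp3 the deviations of these kidneys were -0.36 and 0.28. For Avpr2 they were -0.53 and 0.40, although Avpr2 was lower in FeD kidneys as a group. FeD kidney 2 was thus the lowest and FeD kidney 3 the highest FeD kidney for each of these genes. Control kidney 3 was the highest control kidney, by 0.45 for Aqp2, 0.34 for Aqp3 and 0.20 for Avpr2. Aqp4 and the urea transporter Slc14a2 of the inner medulla and thin limb spread further, from -0.86 to 0.97 and from -0.74 to 0.96 among FeD kidneys. Other markers of principal cells were divided: Fxyd4, Gata3 and Elf5 were also lowest in FeD kidney 2 and highest in FeD kidney 3, whereas Scnn1b, Scnn1g and Hsd11b2 were lowest in FeD kidney 3. Aqp1 and Aqp6 deviated less, by -0.02 to 0.02 and -0.05 to 0.03 among FeD kidneys. FeD kidney 2 also held the adrenal transcripts and had the fewest counts, and the part of either in these deviations was not tested.

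**Figure D2:**
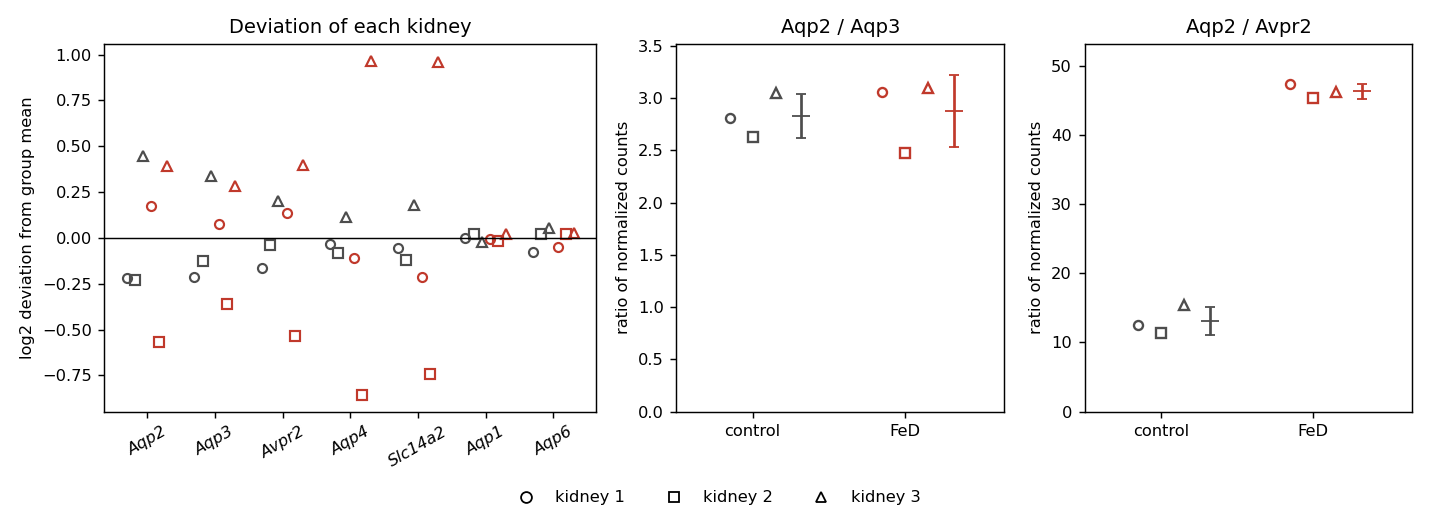
Left, log2 deviation of each kidney from the mean of its group for 7 genes; middle and right, Aqp2 over Aqp3 and Aqp2 over Avpr2 as ratios of normalized counts, from 0, with the mean ± SD (n = 3). Aqp2 over Aqp3 overlapped between groups at about 2.83 and 2.88, and Aqp2 over Avpr2 was 13.1 in control and 46.3 in FeD kidneys. How reads of the exon bases that Avpr2 shares with Arhgap4 were counted is not known.

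Other genes of principal cells were compared as markers of the cell type. Of 6 markers, 3 were higher and 1 lower in FeD kidneys at an adjusted P under 0.05 by edgeR. Their summed level was 11494, 12056 and 12729 normalized counts in control kidneys 1, 2 and 3 and 13884, 12914 and 12591 in FeD kidneys 1, 2 and 3. The sums overlapped between the groups, and no marker was at 0. The most abundant marker, Hsd11b2, which shields the mineralocorticoid receptor from glucocorticoids, fell by 0.30 on the log2 scale (edgeR adjusted P = 0.025). The sodium channel subunits Scnn1g and Scnn1b rose by 0.75 and 0.32 on the same scale (edgeR adjusted P = 0.00080 and 0.014). The call of Hsd11b2 was lost without control kidney 2 or 3 or FeD kidney 2, that of Scnn1b without control kidney 1 or 2, and both without control kidney 1 and FeD kidney 2 together. Relative to the mean log2 level of the 6 markers, Aqp2 was at 3.01, 2.92 and 3.57 in control kidneys 1, 2 and 3 and at 4.18, 3.56 and 4.37 in FeD kidneys 1, 2 and 3. FeD kidney 2 was level with control kidney 3, so the groups overlapped. The mean log2 difference was 3.17 ± 0.348 in control and 4.04 ± 0.426 in FeD kidneys (SD, n = 3), higher by 0.87 in FeD kidneys. The exact permutation test gave P = 0.20 (two-sided), where the smallest P that 3 against 3 kidneys allow is 0.10. The part of cell number in the rise of Aqp2 and Aqp3 was not tested beyond these markers.

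Aqp4, the other basolateral water channel of principal cells, most abundant toward the inner medulla, lies on chromosome 18 from 15547903 to 15562193 on the minus strand. It had 2178, 2106 and 2413 normalized counts in control kidneys 1, 2 and 3 and 1927, 1149 and 4069 in FeD kidneys 1, 2 and 3. The control kidneys lay within the span of the FeD kidneys, of which FeD kidney 2 was far below and FeD kidney 3 far above the controls. The means were 2232 ± 160.3 and 2382 ± 1512 (SD, n = 3). The log2 fold change of 0.10 did not pass (SE 0.37; edgeR, Benjamini-Hochberg adjusted P = 0.85). Its sign was not stable: without FeD kidney 3 the log2 fold change was -0.52 (edgeR adjusted P = 0.047, within a range of 0.047 to 0.94 over 14 alternatives). With the replicate number as a block it was -0.083 (edgeR adjusted P = 0.82). It was 0.42 without control kidney 1 and FeD kidney 2, and did not pass (edgeR adjusted P = 0.34).

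Avpr2, the receptor through which vasopressin acts on principal cells and the thick ascending limb, lies on chromosome X from 71137441 to 71140841 on the plus strand. It had 835, 908 and 1074 normalized counts in control kidneys 1, 2 and 3 and 624, 391 and 746 in FeD kidneys 1, 2 and 3. Every FeD kidney was below every control kidney, with the highest FeD kidney, FeD kidney 3, close to the lowest control kidney, control kidney 1. The mean fell from 939 ± 122 to 587 ± 180.4 (SD, n = 3). The log2 fold change was -0.67 (SE 0.21; edgeR, Benjamini-Hochberg adjusted P = 0.031). The call was lost without control kidney 2 (adjusted P = 0.072), control kidney 3 (adjusted P = 0.11) or FeD kidney 1 (adjusted P = 0.073) by edgeR, and over 14 alternatives the adjusted P ran from 0.0036 to 0.11. Without control kidney 1 and FeD kidney 2 the log2 fold change was -0.52 and passed (edgeR adjusted P = 0.030). With the Xist level as a further term it was -0.65 and also passed (edgeR adjusted P = 0.046).

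The exons of Avpr2 share 2347 of their 2886 bases, 81.3%, with those of Arhgap4 on the opposite strand, the only exon overlap found for any of the 10 genes. The overlap is that of the GENCODE gene annotation, and the annotation and use of strand in the counting are not given. Reads of the shared bases may have been counted for either gene or for neither. Arhgap4 had 319, 294 and 299 normalized counts in control kidneys 1, 2 and 3 and 112, 81.8 and 104 in FeD kidneys 1, 2 and 3. Its groups were far apart, and it fell by 1.60 on the log2 scale (SE 0.14; edgeR adjusted P = 1.0e-04). Avpr2 over Arhgap4 was 2.62, 3.09 and 3.59 in control kidneys and 5.57, 4.78 and 7.14 in FeD kidneys, without overlap. The share of Arhgap4 reads in the fall counted for Avpr2 was not tested. L1cam, which also spans Avpr2 on the opposite strand, shares 0 exon bases with it and fell by 0.42 on the log2 scale (edgeR adjusted P = 0.018). Its call was lost without control kidney 3, FeD kidney 1 or FeD kidney 2, and without control kidney 1 and FeD kidney 2 together.

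Aqp1, the constitutive channel of the proximal tubule, the thin descending limb and the descending vasa recta, lies on chromosome 6 from 55286426 to 55298549 on the plus strand. It had 19970.5, 20286 and 19679.6 normalized counts in control kidneys 1, 2 and 3 and 14520.4, 14416 and 14823 in FeD kidneys 1, 2 and 3. The kidneys of each group lay close together and the groups were clearly apart. The mean fell from 19978 ± 303 to 14586 ± 211 (SD, n = 3), a ratio of 0.730. The log2 fold change was -0.45 (SE 0.07; edgeR, Benjamini-Hochberg adjusted P = 0.0013), and it was -0.44 without control kidney 1 and FeD kidney 2 (edgeR adjusted P = 0.020).

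Markers of the segments that hold Aqp1 also differed between the groups. Of 9 proximal tubule markers 0 were higher and 6 lower by edgeR. Their summed level was 158403, 171549 and 166592 normalized counts in control kidneys 1, 2 and 3 and 88970.0, 91591 and 78685 in FeD kidneys 1, 2 and 3. Every FeD sum was below every control sum, no marker was at 0, and the most abundant marker, the phosphate transporter Slc34a1, fell by 2.22 on the log2 scale (edgeR adjusted P = 1.7e-05). Its mean was 71821 normalized counts in control and 15383 in FeD kidneys. The glucose transporter Slc5a2 and the anion transporter Slc22a8 also fell, with log2 fold changes of -4.89 and -2.06 (edgeR adjusted P = 3.3e-06 and 2.5e-05). Slc22a6, Lrp2 and Cubn fell less, with log2 fold changes of -1.08, -0.48 and -0.45 (edgeR adjusted P = 0.013, 0.0019 and 0.0022). Hnf4a, Slc5a12 and Slc27a2 did not pass, at -0.24, 0.18 and 0.01 (edgeR adjusted P = 0.19, 0.33 and 0.93). Of 3 thin descending limb markers 0 were higher and 2 lower, Bst1 by -0.78 and Slc4a11 by -1.80 on the log2 scale (edgeR adjusted P = 0.0065 and 3.1e-05). Their sum was 9558, 9405 and 11129 in control kidneys 1, 2 and 3 and 6386, 4546 and 13322 in FeD kidneys 1, 2 and 3, with overlap, led by Slc14a2. Of 5 endothelial markers 0 were higher and 3 lower, and their sum was 11259, 11096 and 10668 normalized counts in control and 6755, 8212 and 9266 in FeD kidneys 1, 2 and 3. The endothelial sums did not overlap, although the most abundant marker, Pecam1, did not pass (log2 fold change 0.09; edgeR adjusted P = 0.52). Those that fell were Emcn, Kdr and Cdh5, with log2 fold changes of -1.04, -0.59 and -0.42 (edgeR adjusted P = 0.00015, 0.0026 and 0.021), and the call of Cdh5 was lost without control kidney 1 or 2, FeD kidney 2, or control kidney 1 and FeD kidney 2 together. Slc14a1 did not pass, with a log2 fold change of -1.42 (edgeR adjusted P = 0.061). It had 784, 543 and 569 normalized counts in control and 115, 89.6 and 489 in FeD kidneys 1, 2 and 3, without overlap. The part of these markers in the fall of Aqp1 was not tested.

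Relative to the mean log2 level of the 9 proximal markers, Aqp1 was at 0.81, 0.71 and 0.74 in control kidneys 1, 2 and 3 and at 1.52, 1.56 and 1.63 in FeD kidneys 1, 2 and 3. Every FeD kidney was above every control kidney, and Aqp1 fell less than the mean log2 level of these markers did. The difference was 0.82 on the log2 scale, with P = 0.10 by the exact permutation test (two-sided), the smallest P that 3 against 3 kidneys allow. With the median of the markers in place of their mean the difference was -0.04 (P = 0.90, exact permutation test), so the higher value held only against the mean.

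Aqp7, a water and glycerol channel of the brush border of the proximal straight tubule, lies on chromosome 4 from 40980107 to 40995172 on the minus strand. It had 352, 377 and 402 normalized counts in control kidneys 1, 2 and 3 and 509, 439 and 302 in FeD kidneys 1, 2 and 3. FeD kidney 3 was the lowest of all 6 kidneys and the other FeD kidneys were the highest, so the groups overlapped. The log2 fold change of 0.14 did not pass (SE 0.18; edgeR, Benjamini-Hochberg adjusted P = 0.54). Without FeD kidney 3 it was 0.34 and passed (edgeR adjusted P = 0.021, within a range of 0.021 to 0.94 over 14 alternatives). Without FeD kidney 1 it was -0.02, and with the Xist level as a further term it was also -0.02. Each Ddx3y-high kidney (control kidney 3 and FeD kidneys 1 and 2) had more Aqp7 than each Xist-high kidney. The part of this order in the Aqp7 value was not tested beyond the Xist term. Leaving out control kidney 1 and FeD kidney 2 gave 0.06 (edgeR adjusted P = 0.86). All 3 markers of the proximal straight tubule, Slc22a7, Slc22a13 and Slc7a13, fell by edgeR and 0 rose, their sum was 2407, 2454 and 2781 normalized counts in control and 885, 993 and 986 in FeD kidneys 1, 2 and 3, and Slc22a13 was the most abundant. Their fall was not seen in Aqp7, and its part in the Aqp7 value was not tested.

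Aqp11, a channel of intracellular membranes of the proximal tubule, lies on chromosome 7 from 104874889 to 104886757 on the minus strand. It had 410.3, 416 and 433 normalized counts in control kidneys 1, 2 and 3 and 412, 435 and 410.0 in FeD kidneys 1, 2 and 3. The values of both groups lay in the same narrow span. The means were 419.8 ± 12.0 and 419.0 ± 13.9 (SD, n = 3), and the log2 fold change of -0.00 did not pass (SE 0.08; edgeR, Benjamini-Hochberg adjusted P = 0.97). The value was -0.04 when control kidney 1 and FeD kidney 2 were left out (edgeR adjusted P = 0.82).

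Aqp6, an anion-permeable channel of intracellular vesicles in acid-secreting intercalated cells, lies on chromosome 15 from 99431831 to 99435908 on the plus strand. It had 2069.6, 2214 and 2259 normalized counts in control kidneys 1, 2 and 3 and 1642, 1724 and 1729 in FeD kidneys 1, 2 and 3. Every FeD kidney was below every control kidney, and the spread within each group was small. The mean fell from 2181 ± 98.8 to 1698 ± 49.1 (SD, n = 3), with a log2 fold change of -0.36 (SE 0.06; edgeR, Benjamini-Hochberg adjusted P = 0.0018). Leaving out control kidney 1 and FeD kidney 2 gave -0.40 (edgeR adjusted P = 0.015). Of 7 intercalated cell markers 2 were higher and 3 lower by edgeR, among the latter Atp6v1b1, whose call was lost without control kidney 3 and without control kidney 1 and FeD kidney 2 together. Their summed level was 13032, 13729.8 and 14826 normalized counts in control kidneys 1, 2 and 3 and 11042, 10941.5 and 10308 in FeD kidneys 1, 2 and 3. The sums did not overlap, Atp6v1b1 was the most abundant marker and none was at 0. Slc26a4, the anion exchanger of the base-secreting cells, and Slc4a1, that of the acid-secreting cells, fell by 1.67 and 1.42 on the log2 scale (edgeR adjusted P = 0.00018 and 0.0051). The proton pump subunit Atp6v0d2 and the transcription factor Foxi1 rose by 0.57 and 0.39 (edgeR adjusted P = 0.00088 and 0.014), and the call of Foxi1 was lost without control kidney 1 or 2. The part of these markers in the fall of Aqp6 was not tested.

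Aqp5, a channel best known from glands and lung, had 26.8, 14.4 and 16.0 normalized counts in control kidneys 1, 2 and 3 and 26.0, 11.7 and 22.4 in FeD kidneys 1, 2 and 3. The groups overlapped over most of their span at these low counts, and the log2 fold change of 0.09 did not pass (SE 0.38; edgeR, Benjamini-Hochberg adjusted P = 0.87). It was 0.67 without control kidney 1 and FeD kidney 2, and again did not pass (edgeR adjusted P = 0.17). Aqp8, a channel of intracellular membranes, had raw counts of 6, 4 and 6 in control kidneys 1, 2 and 3 and 2, 3 and 6 in FeD kidneys 1, 2 and 3. These counts were close to the floor of 3 and were removed by the filter on low counts, so Aqp8 was not tested with the other genes. With no filter its log2 fold change of -0.47 did not pass (edgeR adjusted P = 0.59). The other aquaporins, Mip, Aqp9 and Aqp12, were near or under the floor as well. Mip had 2 to 7 raw counts per kidney, Aqp9 had 0 to 4, and Aqp12 had 1 count in FeD kidney 2 and 0 in the other kidneys. None of these 3 genes was tested.

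Fold changes and their dependence on single kidneys are compared in the plot of the 9 tested genes. Aqp1 and Aqp6 had the smallest standard errors, 0.07 and 0.06, apart from which only Aqp11 was under 0.10. Aqp4 and Aqp5 had the largest, 0.37 and 0.38.

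**Figure D3:**
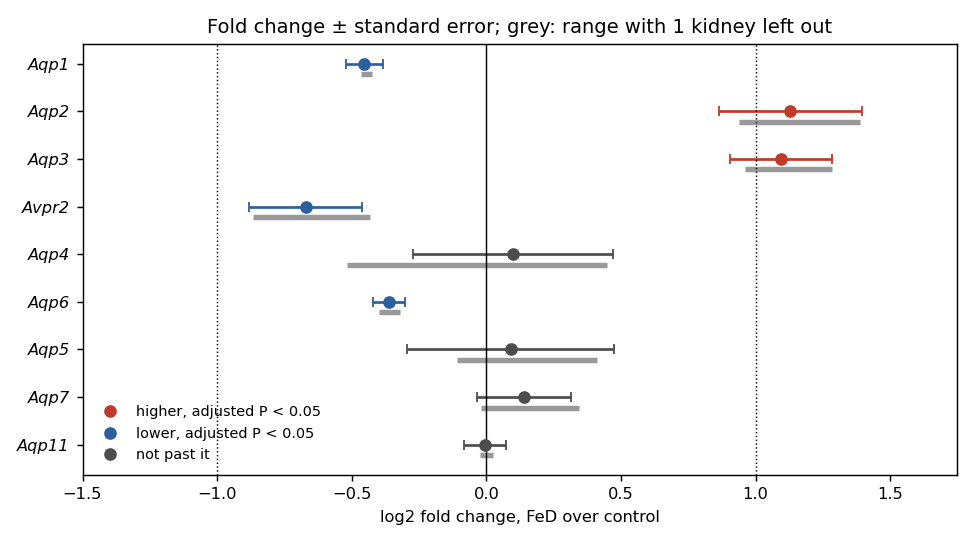
Log2 fold change of FeD over control (horizontal axis) with its standard error for the 9 tested genes; grey bars give the range when each of the 6 kidneys was left out in turn, and dotted lines mark 2-fold. Aqp2 (0.94 to 1.39) and Aqp3 (0.96 to 1.28) were above 0 throughout, Aqp1, Aqp6 and Avpr2 (-0.87 to -0.43) were below 0 throughout, and Aqp4, Aqp5, Aqp7 and Aqp11 crossed 0.

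Levels of different genes were compared as normalized counts per kilobase of annotated exon. On this scale the means in control kidneys were 8793 for Aqp2, 7605 for Aqp1, 2384 for Aqp3, 1059 for Aqp6 and 420.0 for Aqp4. They were followed by Avpr2 at 325, Aqp11 at 318, Aqp7 at 133, Aqp5 at 11.4 and Aqp8 at 3.28 per kilobase. The place of Avpr2 is uncertain, since its counts were divided by all of its exon bases, including the 81.3% shared with Arhgap4. Aqp2 and Aqp1 overlapped between control kidneys, as did Avpr2 and Aqp11, and the other neighbours in this order did not. In FeD kidneys the means per kilobase were 19240.2 for Aqp2, 5552 for Aqp1, 5095 for Aqp3, 824 for Aqp6 and 448 for Aqp4. They were followed by Aqp11 at 317, Avpr2 at 203, Aqp7 at 147, Aqp5 at 12.0 and Aqp8 at 2.34 per kilobase. Aqp2 stood clear of every other gene in FeD kidneys. Overlapping there were Aqp1 with Aqp3, Aqp4 with Aqp11 and Avpr2, and Avpr2 with Aqp7. Of the summed level per kilobase of the 9 aquaporins, Aqp2 held 41.9% in control and 59.9% in FeD kidneys. Aqp1 held 37.2% and 18.3% of the same sum, and Aqp3 held 11.4% and 16.2%. In control kidneys 1 and 2 Aqp1 held more than Aqp2, 40.3% and 40.4% against 39.0% and 38.3%. In control kidney 3 Aqp2 held more, 48.4% against 31.0%.

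**Figure D4:**
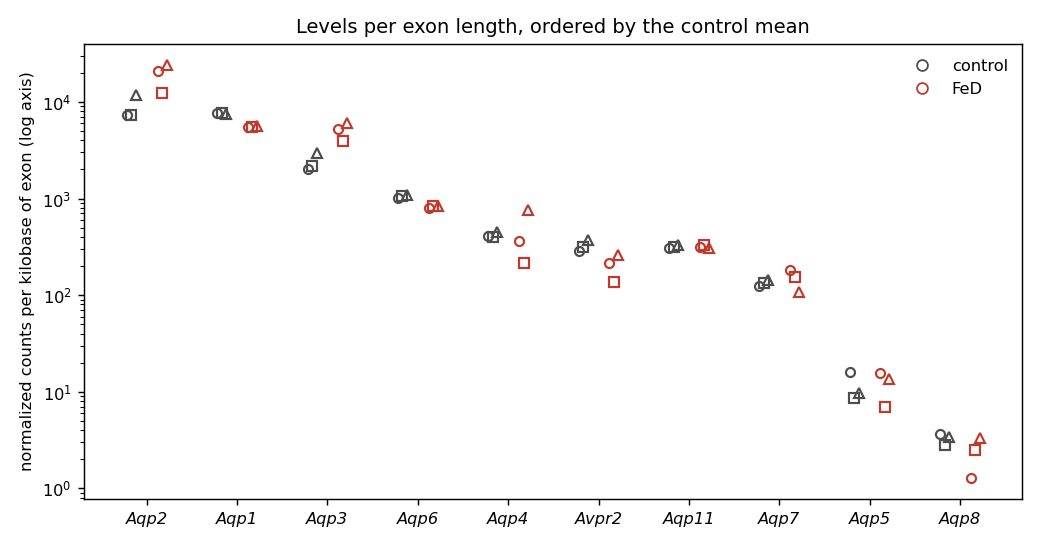
Normalized counts per kilobase of exon (vertical log axis) of the 10 genes in each control and FeD kidney, ordered by the control mean. Aqp2 and Aqp1 shared the highest levels in control kidneys, and in FeD kidneys Aqp2 was above Aqp1 in every kidney.

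Position in the genome was compared with the direction of change. Aqp2, Aqp5 and Aqp6 follow each other on the plus strand of chromosome 15, with 6303 bases between Aqp2 and Aqp5 and 6570.0 bases between Aqp5 and Aqp6. Of these neighbours Aqp2 rose, Aqp5 did not pass and Aqp6 fell. Faim2, 51038 bases from Aqp2 on its other side, had 7.67, 8.85 and 7.12 normalized counts in control kidneys 1, 2 and 3 and 22.0, 93.5 and 59.6 in FeD kidneys 1, 2 and 3. It was low in all kidneys and higher in each FeD kidney (log2 fold change 2.86; edgeR adjusted P = 0.0034). Racgap1, 15018 bases beyond Aqp6, fell by 1.28 on the log2 scale (edgeR adjusted P = 0.0016). Aqp7 and Aqp3, 44582 bases apart on the minus strand of chromosome 4, also differed in that Aqp3 rose and Aqp7 did not pass.

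Genes with the most similar pattern over the 6 kidneys were found among 12933 genes by Pearson's r of log2 normalized counts, as a description. Since the groups differ, r reflects the group difference as well as the order within groups. For Aqp1 these were Lamtor5 (r = 0.9997), Gstk1 (r = 0.9992) and Arhgef15 (r = 0.9989). For Aqp2 they were Smcr8 (r = 0.9935), Ufsp1 (r = 0.9929) and Mtfmt (r = 0.9925). For Avpr2 they were Ccdc142 (r = 0.9966), Wnt9b (r = 0.9959) and Hoxb5os (r = 0.9953).

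Genes that act with these channels were described by lists. For comparison, 22.4% of all tested genes were higher and 23.3% lower in FeD kidneys by edgeR. At least 2-fold were 4.34% and 5.69% of them. Of 24 genes of vasopressin signalling, 22 were tested by edgeR, 7 were higher and 4 lower in FeD kidneys, with a median log2 fold change of 0.10. At least 2-fold were 2 and 1 of them. The vasopressin V1a receptor, Avpr1a, had 340.3, 334 and 372 normalized counts in control kidneys 1, 2 and 3 and 601, 671 and 661 in FeD kidneys 1, 2 and 3. It thus moved opposite to the counts of Avpr2, without overlap (log2 fold change 0.88; edgeR adjusted P = 0.00017). The phosphodiesterases Pde4b and Pde4d, which degrade cyclic AMP, rose by 1.03 and 0.68 on the log2 scale (edgeR adjusted P = 5.1e-05 and 0.0016). The protein kinase A subunits Prkaca and Prkar2b fell by 0.50 and 1.38 (edgeR adjusted P = 0.00042 and 0.0010). Gnas, which encodes the stimulatory G protein, fell by 0.29 (edgeR adjusted P = 0.018), a call lost without control kidney 2 or 3 or FeD kidney 1. The ligand gene Avp and the receptor gene Avpr1b were removed by the filter on low counts.

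Of 37 genes of Aqp2 trafficking and turnover, all tested, 9 were higher and 7 lower by edgeR, with a median log2 fold change of -0.02. At 2-fold the counts were 0 and 0. Of these genes 9 in place of 16 passed without control kidney 1 and FeD kidney 2. The syntaxins went in opposite directions, Stx3 by 0.84 and Stx4a by -0.48 on the log2 scale (edgeR adjusted P = 0.00039 and 0.0018). The endosomal GTPase Rab5a and the ubiquitin ligase Nedd4l rose by 0.54 and 0.55 (edgeR adjusted P = 0.00018 and 0.0015). The dynein light chain Dynll1 and the annexin Anxa2 fell by 0.81 and 0.48 (edgeR adjusted P = 0.00024 and 0.00047).

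Of 15 collecting duct transcription factors and nuclear receptors, 3 were higher and 2 lower by edgeR, with a median log2 fold change of 0.06. Without control kidney 1, 3 in place of 5 passed. Nr1h4, Gata3 and Tfcp2l1 rose by 0.58, 0.47 and 0.34, and Nr1h3 and Nr3c1 fell by 0.70 and 0.32 on the log2 scale. The call of Tfcp2l1 was lost without control kidney 1, alone or together with FeD kidney 2, and that of Nr3c1 when any kidney other than FeD kidney 3 or that pair was left out. Of 14 receptors that modulate the vasopressin response, 5 were higher and 2 lower, with a median of 0.21, and at least 2-fold were 2 and 1. The adenosine receptor Adora1, the adrenergic receptor Adra2a and the calcium-sensing receptor Casr rose by 0.99, 1.25 and 0.48. The prostaglandin receptors Ptger2 and Ptger3 fell by 1.70 and 0.55, Ptger2 from at most 21.4 normalized counts. The call of Ptger3 was lost without FeD kidney 1, without any 1 of the control kidneys, without control kidney 1 and FeD kidney 2 together and with the Xist term.

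Of 6 genes of glycerol handling, listed since Aqp3 and Aqp7 also pass glycerol, 1 was higher and 2 lower by edgeR, with a median log2 fold change of -0.23. Without FeD kidney 3, 6 in place of 3 passed. Gpd1, a glycerol phosphate dehydrogenase, fell by 1.42 on the log2 scale (edgeR adjusted P = 4.5e-05). The lipase Lipe fell by 0.43 and Gpd1l rose by 0.21 (edgeR adjusted P = 0.0091 and 0.030), and the call of Gpd1l was lost in 8 of 14 alternatives, namely when any kidney other than FeD kidney 3 was left out, without control kidney 1 and FeD kidney 2 together, with the replicate block and with the Xist term. Over all 15145 genes 45.7% passed in either direction, and none of the lists was tested as a set. The plot of the lists shows every tested gene.

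**Figure D5:**
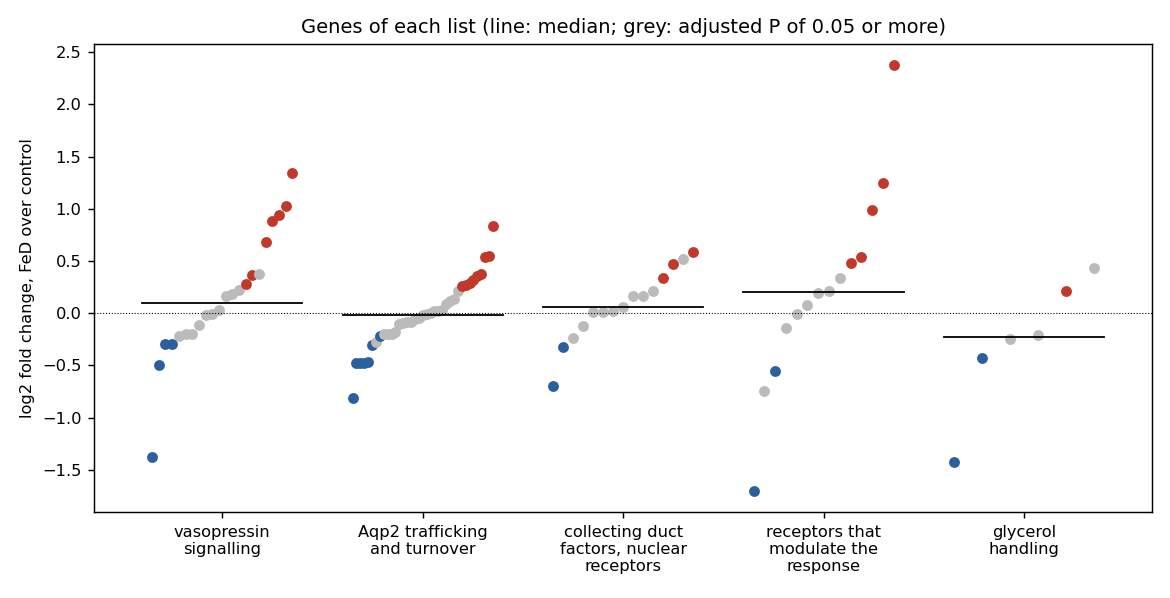
Log2 fold change of FeD over control (vertical axis) of each tested gene of the lists for vasopressin signalling, Aqp2 trafficking and turnover, collecting duct factors and nuclear receptors, receptors that modulate the response, and glycerol handling. Red and blue points passed an adjusted P under 0.05, grey points did not, and the line is the median, at 0.10, -0.02, 0.06, 0.21 and -0.23.

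Markers of other cell types were counted in the same way by edgeR. Of the connecting tubule 1 of 3 was higher (Trpv5) and 2 lower (Slc8a1 and, lost without FeD kidney 1, Calb1), led by Calb1, with sums of 16208 ± 4200.2 in control and 10261 ± 545 normalized counts in FeD kidneys (SD, n = 3). Of the distal convoluted tubule 0 of 3 were higher and 2 lower (Pvalb and Slc12a3), led by Slc12a3, from 24032 ± 2914 to 8268 ± 1847. None of 3 thick ascending limb markers, led by Slc12a1, and none of 3 podocyte markers, led by Podxl, passed in either direction. Of the urothelium 3 of 5 were lower (Krt5, Upk2 and Upk3a) and 0 higher, led by Upk1b, with sums of 1146 ± 199.8 and 816 ± 124. Of adipocytes 3 of 4 were lower (Plin1, Cidec and, lost without control kidney 1 or 2, Adipoq) and 0 higher, led by Cidec, with sums of 1118 ± 93.1 and 483 ± 99.3. Of 4 hepatocyte markers 1 was higher and 0 lower, led by Apoa2, with sums of 104 ± 18.8 and 282 ± 37.8. Of 5 exocrine pancreas markers only Cela1, the most abundant, was tested and it was lower, with sums of 1267 ± 103.6 and 226 ± 95.0, and Prss2 was at 0. Of 6 erythroid markers 2 were tested and passed in neither direction, Alas2 was the most abundant, and the 4 globin genes were at 0 in all 6 kidneys. The part of any of these cell types in the aquaporin values was not tested.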

How the data were processed

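Poly-A RNA from 3 control and 3 FeD kidneys was sequenced by the authors as TruSeq single-end libraries. According to the paper's methods and the submitters' processing notes, the authors used CASAVA 1.8.2, trimmed reads with Trimmomatic, aligned them to mm9 with TopHat2 2.0.11, kept uniquely mapped reads and counted reads per gene with HTSeq. What they deposited are these raw counts, without normalization, in 2 tables for control and FeD kidneys. The gene annotation and the use of strand are not given in the sources used here. Groups came from the sample labels. The 10 genes and the gene lists were chosen with earlier results of these data known.

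The analysis ran edgeR 4.0.16 under R 4.3.3: filterByExpr, TMM, glmQLFit and glmQLFTest for FeD against control without further terms, with Benjamini-Hochberg adjustment over all tested genes. A gene passed at an adjusted P under 0.05, and 2-fold means that its log2 fold change was 1 or more in size. Standard errors (SE) were derived from the log2 fold change and the F statistic, as the size of the former over the square root of the latter. The procedure was tested on simulated data. Marker comparisons used log2 of normalized counts plus 1 and exact permutation tests over kidneys (Python 3.11.15). Exon lengths, positions and overlaps came from the GENCODE annotation of NCBIM37 (mm9); promoter windows came from RefSeq. Replicates of a group were checked as separate libraries. Alternatives were DESeq2 1.42.0, its size factors within edgeR, library size alone, no filter, the replicate number as a block, globin genes left out and each kidney left out in turn; for marker comparisons, a pseudocount of 0.5 and the median of the markers. Leaving out control kidney 1 with FeD kidney 2, and the Xist level as a term, were added after the data were seen.

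Named genes are the 10 genes; the other aquaporins; from each list up to 3 genes with the smallest adjusted P in each direction among those that passed, and the most abundant gene of each cell type list, the lists being vasopressin signalling, Aqp2 trafficking and turnover, collecting duct transcription factors and nuclear receptors, receptors that modulate the vasopressin response, glycerol handling and markers of cell types; the 3 genes most like Aqp1, Aqp2 and Avpr2 among genes averaging 50 or more normalized counts; and overlapping or neighbouring genes, of which the neighbours other than those of Aqp2 and Aqp6 are not named in the text. Xist, Ddx3y, Hsd3b1, Cyp11a1, Cyp11b1, Fxyd4, Elf5 and Slc14a2's deviations were chosen after their values were seen. The proximal tubule and endothelial markers are all named, whether or not they passed.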

Additional observations from a re-analysis of the deposited data

How the results depend on the processing

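With 3 kidneys a group, single kidneys decide some results. Over 14 alternatives by edgeR or DESeq2, Aqp1 (-0.47 to -0.42), Aqp2 (0.94 to 1.39), Aqp3 (0.96 to 1.28) and Aqp6 (-0.40 to -0.32) kept their direction and passed. When single kidneys were left out, the genes raised 2-fold numbered 0 to 2, the log2 fold change of Avpr2 ran from -0.87 to -0.43 (called in 11 of 14 alternatives), Aqp4 from -0.52 to 0.45, Aqp5 from -0.11 to 0.41, Aqp7 from -0.018 to 0.34, Aqp11 from -0.024 to 0.025 and Pecam1 from -0.018 to 0.23. Genes that passed numbered 3 to 7 of the collecting duct factors and 2 to 6 of glycerol handling. Without control kidney 1 and FeD kidney 2, 9 genes of Aqp2 trafficking passed. With the Xist term Aqp7 was at -0.018. Aqp11, at -0.0042 in all 6 kidneys with TMM, was at 0.0038 with DESeq2 and 0.0046 with its size factors. Aqp1 relative to the median of the markers was -0.037. Leaving out the globin genes changed no value, since their counts are 0. With no filter, Aqp8 was at -0.47 (edgeR adjusted P = 0.59). Of 67 other genes from the lists, markers and neighbours, 15 lost their call with the same direction, in 63 pairs of gene and setting. The causes were not tested. Aqp5 and Aqp8 had few counts in every kidney.

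With the replicate number as a block, Aqp4 was at -0.083 (edgeR adjusted P = 0.82), and 3100 genes were higher and 3344 lower in place of 3397 and 3527. Deviations of same-numbered kidneys correlated at -0.16, 9.6e-05 and -0.03, and those of differently numbered kidneys at -0.09 to 0.17. No pairing by number was seen, but with 3 kidneys a group these correlations cannot exclude it.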
